A study of Mus musculus with 23 samples.

Results

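The transcripts of 42 genes that copy the genome were followed in cultured mouse CD4+ T cells. The genes were taken by name from the deposited table of read counts by their known part in replication, out of 53379 gene IDs, with earlier results of these data known. They were grouped by role as 11 genes of origin recognition and licensing, 8 of helicase activation, 8 of the DNA polymerases and primase, 6 of the sliding clamp and its loader, 2 that join the lagging strand, 5 of nucleotide supply and 2 that copy DNA methylation. All 42 were counted in every library, with 57 reads at the least (Gins1) and 24759 at the most (Mcm6), and all 42 passed the filter on low counts.

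The cells came from spleens of C57BL/6 mice and had been sorted by flow cytometry for CD45, CD3 and CD4 and against CD8. The labels give their genotype as wild type or Gpr109a-/-. Hcar2, the niacin receptor, was formerly called Gpr109a. Every culture ran for 72 h and held IL-2 at 30 IU/ml, a cytokine that keeps T cells alive and supports their division. Cells given nothing more are called unstimulated, and cells that also received antibodies against CD3 and CD28, which stand in for antigen and co-stimulation, are called stimulated. Each kind of culture was run without niacin or with 5 mM niacin. This gave 8 groups in 23 libraries, each of 3 libraries except 1, the knockout-labelled cells kept unstimulated in niacin, for which there were 2 (numbers 2 and 3). Nothing in the labels says whether libraries of a group came from separate animals, and the p-values therefore speak of library-to-library spread, which may be technical. The labels give no sex or age of the animals and no part of the gene that was deleted.

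DNA replication begins with licensing, in which the origin recognition complex, Cdc6 and Cdt1 load the Mcm2 to Mcm7 helicase onto DNA. The kinase Cdc7 with its partner Dbf4, together with cyclin-dependent kinases, then lets Cdc45 and the GINS complex join the helicase and start it. Polymerase alpha with primase lays down primers, polymerases epsilon and delta extend them on the clamp Pcna, which the Rfc complex loads, and Fen1 and Lig1 join the fragments of the lagging strand. Resting T cells lie outside the cell cycle with little of this machinery, and CD3 and CD28 signals bring them into division.

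Totals ran from 13205565 to 30090018 counts per library, with a median of 24007159. Levels are given as CPM, counts scaled to a common library total with TMM factors, so they are shares of each library and not amounts per cell. Hcar2 itself went against the labels, with 0 to 32 counts in the knockout-labelled libraries and 0 or 1 in the wild-type-labelled ones, so every direction by genotype below is that of the label. The lowest total was that of unstimulated knockout-labelled library 3. Its column header lacks the tag jax that the headers of all other libraries carry, and the labels do not say what the tag means. The chi-square per gene between its counts and those of libraries 1 and 2 of its group was 259 and 248. Between libraries 1 and 2 it was 26.2. Mitochondrial genes took 0.187% and 0.216% of the counts in wild-type-labelled libraries 1 and 2 stimulated with niacin and 0.605% in library 3. Cd4 stood at 400.3 CPM or more in every library. Of the CD8 markers, Cd8a was at 5.03 CPM or less and Cd8b1 at 7.02 to 28.9 CPM. Of the 8 B cell markers Ighm held most of the summed level, and the other 7 added up to 3.83 to 12.9 CPM.

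Stimulation raised the summed level of the replication genes in every background. The sum was 5918, 4126 and 3914 CPM in the unstimulated wild-type-labelled libraries 1, 2 and 3, and 8072, 9015 and 9473 CPM in the stimulated ones. Under the knockout label it was 5528, 3722 and 4479 CPM unstimulated and 10165, 10903 and 11491 CPM stimulated. With niacin the unstimulated libraries read 5935, 3659 and 2940 CPM under the wild-type label and 3192 and 4125 CPM under the knockout label. The stimulated libraries with niacin read 8691, 9369 and 8009 CPM under the wild-type label and 10789.5, 11204 and 11723 CPM under the knockout label. No stimulated library overlapped an unstimulated one, and no knockout-labelled stimulated library overlapped a wild-type-labelled stimulated one. The ratio of stimulated to unstimulated group means was 1.90 under the wild-type label, 2.37 under the knockout label, 2.08 under the wild-type label with niacin and 3.07 under the knockout label with niacin. In RNA from whole cultures, more cells in S phase and more of these transcripts per cell cannot be told apart.

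**Figure D1:**
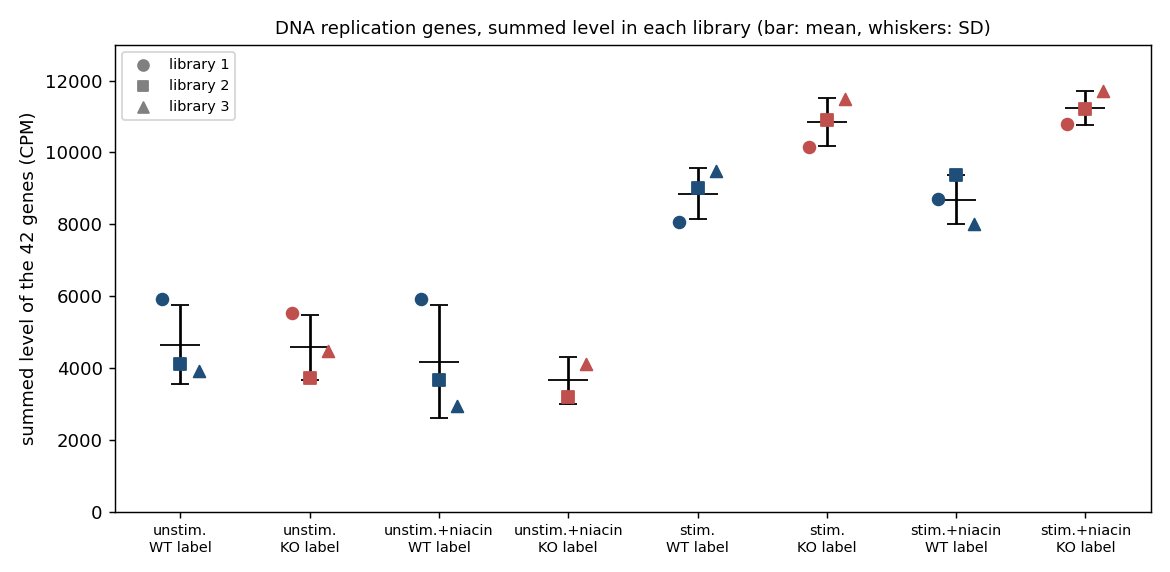
Summed CPM of the 42 replication genes in each library (y axis) by group (x axis), with circles, squares and triangles for libraries 1, 2 and 3, blue for the wild-type label and red for the knockout label, and a bar with whiskers for the mean and SD. The 12 stimulated libraries lie between 8009 and 11723 CPM, above the 11 unstimulated ones, and circles are the highest point in each unstimulated group that has one.

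Compared per kilobase of exon, the transcripts of the 42 genes spanned a wide range of levels. Rrm2, a subunit of ribonucleotide reductase, had the highest median in stimulated libraries at 204 RPKM (124 to 274), followed by Mcm3 at 194, Mcm6 at 191, Mcm5 at 158 and Pcna at 146. The ranges of Rrm2, Mcm3 and Mcm6 overlapped, so their order is not settled. At the low end stood Pole at 9.31 RPKM, Pola1 at 5.62 and Fen1 at 4.80. Fen1 may be undercounted or overcounted, because an antisense gene overlaps 78.8% of its exon length and the sources used here give no strand setting for the counting. The same holds for Gins2 (67.3% overlapped by Gse1) and Orc2 (29.8% overlapped by Nif3l1). Among unstimulated libraries Mcm6 had the highest median, 80.0 RPKM, and Mcm4 had rank 3 there and rank 8 in stimulated libraries.

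Replication genes are classical targets of the E2F transcription factors, so the promoters were searched for E2F strings. RefSeq windows of 300 bases (250 before to 50 after the start site, build GRCm38.p6) were at hand for 35 of the 42 genes. An E2F string (TTTCCCGC, TTTCGCGC, TTTGCCGC or TTTGGCGC on either strand) stood in the windows of 15 of these 35 genes, 42.9%, against 704 of 27025 genes, 2.6%. The CCAAT box, bound by NF-Y, was found for 21 of 35 (60.0% against 41.1%), and the cell cycle element TTTGAA for 8 of 35 (22.9% against 20.2%). The windows of the replication genes had a median G+C content of 58.3%, and all windows 52.7%. The parts of 4 windows upstream of the start site are printed because these genes return in the comparisons below. Mcm6 held the most strings, Mcm5 a pair that overlap on opposite strands, Pola1 a single string and Rrm2 none, and capitals mark the strings.
Mcm6, chr1:128359706-128359955, minus strand: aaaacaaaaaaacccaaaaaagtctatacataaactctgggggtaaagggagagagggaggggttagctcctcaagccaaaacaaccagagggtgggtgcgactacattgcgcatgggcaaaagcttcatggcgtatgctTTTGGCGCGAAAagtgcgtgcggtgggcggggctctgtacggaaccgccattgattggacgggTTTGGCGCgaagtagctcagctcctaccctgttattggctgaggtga
Mcm5, chr8:75109259-75109508, plus strand: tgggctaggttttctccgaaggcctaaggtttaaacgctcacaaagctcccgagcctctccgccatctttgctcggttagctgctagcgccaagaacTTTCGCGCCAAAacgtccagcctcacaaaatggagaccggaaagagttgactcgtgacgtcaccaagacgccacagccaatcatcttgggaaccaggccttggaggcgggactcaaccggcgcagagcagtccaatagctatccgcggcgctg
Pola1, chrX:93632156-93632405, minus strand: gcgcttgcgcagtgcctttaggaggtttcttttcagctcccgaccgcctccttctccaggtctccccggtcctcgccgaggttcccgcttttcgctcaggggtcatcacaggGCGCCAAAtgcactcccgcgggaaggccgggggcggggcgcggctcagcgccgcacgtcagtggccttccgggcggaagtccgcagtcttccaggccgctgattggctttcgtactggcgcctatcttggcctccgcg
Rrm2, chr12:24708004-24708240, plus strand: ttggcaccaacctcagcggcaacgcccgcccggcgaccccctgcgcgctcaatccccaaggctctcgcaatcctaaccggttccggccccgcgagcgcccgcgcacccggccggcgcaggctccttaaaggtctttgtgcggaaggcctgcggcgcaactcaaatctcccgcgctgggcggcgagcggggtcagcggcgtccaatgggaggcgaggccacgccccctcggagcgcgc
A string is a match of letters, not a shown binding site. The median log2 change with stimulation was 1.09 for the 15 genes with a string and 0.91 for the 20 without under the wild-type label, and 1.37 and 1.43 under the knockout label. With niacin the medians were 1.115 and 0.83 under the wild-type label, and 1.79 and 1.79 under the knockout label. The 7 genes with no window had medians of 1.32, 1.80, 1.24 and 1.83 in the same order of backgrounds.

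The first comparison asked how CD3 and CD28 stimulation changed the replication genes in each background. Under the wild-type label 32 of the 42 genes rose, against 23.4% of all 16882 genes tested, and the median log2 change was 1.00 (all genes -0.07). With the knockout label 36 rose (25.2% of all genes) with a median of 1.42 (all genes -0.13). In niacin, 33 rose under the wild-type label (26% of all genes, median 1.09 against -0.10) and 39 under the knockout label (24.5% of all genes, median 1.81 against -0.07). None fell in any background, where 21.7%, 27.5%, 26.6% and 25.3% of all genes did. A gene counts as changed at an adjusted p under 0.05 by edgeR's quasi-likelihood test with Benjamini-Hochberg adjustment over all genes tested. Across backgrounds 29 genes rose in all 4, 4 in 3, 5 in 2 and 2 in 1, and Orc2 and Pola1 passed in none. For 26 of the 42 genes every stimulated library lay above every unstimulated one, which held for 15% of all genes tested.

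Markers of other cells moved with stimulation as well. The summed level of 12 myeloid and dendritic markers was 4.19 to 12.05 CPM in unstimulated and 0.677 to 3.06 CPM in stimulated libraries, and of these Csf1r, S100a8, S100a9 and Clec9a were at 0 in all stimulated libraries. Markers of NK and gamma delta T cells summed to 20.9 to 46.7 CPM unstimulated and 76.5 to 114 CPM stimulated. Of that list Eomes, which activated T cells also express, made up 72.3 to 108 CPM in stimulated libraries, where Klrb1c read 0.742 CPM or less and Klra8 was at 0. Their part in the change of the replication genes was not tested.

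Licensing genes rose in most cases but spread widely. Orc6, the smallest subunit of the origin recognition complex (ENSMUSG00000031697, chromosome 8, 85299632 to 85308278), changed most in this role. Unstimulated libraries held 38.7, 25.9 and 29.02 CPM under the wild-type label, 35.1, 22.9 and 16.6 under the knockout label, 43.6, 26.9 and 22.99 under the wild-type label with niacin, and 21.98 and 27.4 under the knockout label with niacin. Stimulated libraries held 85.3, 88.8 and 93.99 CPM under the wild-type label, 107, 103 and 114 under the knockout label, 61.6, 74.5 and 88.5 under the wild-type label with niacin, and 109, 111 and 99.5 under the knockout label with niacin. All 12 stimulated libraries lay above all 11 unstimulated ones, and the log2 fold changes in the same order of backgrounds were 1.52 ± 0.24, 2.11 ± 0.25, 1.26 ± 0.24 and 2.11 ± 0.29 (± SE; adjusted p = 3.73e-05, 7.5e-07, 0.000186 and 6.57e-06). Orc2, another subunit of the same complex (ENSMUSG00000026037, chromosome 1, 58462771 to 58505109), changed least. Its unstimulated levels were 28.1, 40.2 and 40.03 CPM under the wild-type label, 44.4, 42.2 and 27.9 under the knockout label, 46.9, 36.5 and 36.5 under the wild-type label with niacin, and 35.6 and 30.2 under the knockout label with niacin. Its stimulated levels were 32.5, 37.04 and 39.3 CPM under the wild-type label, 50.6, 48.9 and 40.9 under the knockout label, 16.3, 22.98 and 41.8 under the wild-type label with niacin, and 47.5, 47.9 and 46.99 under the knockout label with niacin. Stimulated and unstimulated libraries overlapped in 3 backgrounds and were apart under the knockout label with niacin, and the changes were 0.01 ± 0.25, 0.29 ± 0.25, -0.56 ± 0.25 and 0.53 ± 0.28 (adjusted p = 0.982, 0.332, 0.0636 and 0.124). The lowest Orc2 levels were those of wild-type-labelled libraries 1 and 2 stimulated with niacin. In that background Orc2 passed as lower under 6 other settings, among them DESeq2 (-0.61, adjusted p = 0.0306), and changed by 0.04 without these libraries. Orc2 and Orc6 thus differed in their response although both belong to one complex, a difference between genes that was not itself tested.

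The loading factors and the helicase subunits lay between these extremes. Cdc6, which recruits the helicase to the origin complex, held 72.7, 38.4 and 40.8 CPM under the wild-type label, 66.6, 31.7 and 23.3 under the knockout label, 81.2, 37.8 and 25.8 under the wild-type label with niacin, and 27.4 and 39.3 under the knockout label with niacin before stimulation. After stimulation it held 94.5, 107 and 122 CPM under the wild-type label, 142, 141 and 159.6 under the knockout label, 85.5, 113 and 102 under the wild-type label with niacin, and 135, 147 and 166 under the knockout label with niacin. No stimulated library fell within the unstimulated range, and the changes were 1.09 ± 0.36, 1.86 ± 0.36, 1.06 ± 0.36 and 2.16 ± 0.43 (adjusted p = 0.0171, 0.000257, 0.0174 and 0.000342). Cdt1, its partner in loading, rose in 3 backgrounds with changes of 0.79 ± 0.27, 0.34 ± 0.27, 1.22 ± 0.28 and 1.08 ± 0.31 (adjusted p = 0.0229, 0.3, 0.000994 and 0.00739). It did not pass under the knockout label, where library 3 of the unstimulated cells read 218 CPM against 104 and 74.6 CPM in the other unstimulated libraries. Among the 6 helicase subunits the mean change over the 4 backgrounds was 1.66 for Mcm3, 1.32 for Mcm5, 1.13 for Mcm7, 1.11 for Mcm6, 0.82 for Mcm2 and 0.46 for Mcm4 on the log2 scale. Mcm3, Mcm5, Mcm6 and Mcm7 rose in all 4 backgrounds, Mcm2 in 3 and Mcm4 in 2. For Mcm2 the changes were 0.45 ± 0.25, 0.72 ± 0.25, 0.78 ± 0.25 and 1.35 ± 0.29 (adjusted p = 0.148, 0.0215, 0.014 and 0.000794), and for Mcm5 0.95 ± 0.28, 1.35 ± 0.28, 1.17 ± 0.28 and 1.79 ± 0.33 (adjusted p = 0.00844, 0.000414, 0.00148 and 0.000154). Orc1, the large ATPase subunit of the origin complex, changed by 1.12 ± 0.33, 1.73 ± 0.34, 0.68 ± 0.33 and 2.10 ± 0.40 (adjusted p = 0.00966, 0.000244, 0.0882 and 0.000221).

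Genes of helicase activation held the largest changes of all. Cdc45, which joins Mcm2 to Mcm7 as part of the running helicase (ENSMUSG00000000028, chromosome 16, 18780447 to 18811987), led the role. Levels before stimulation were 63.9, 31.8 and 40.9 CPM under the wild-type label, 56.1, 33.6 and 27.3 under the knockout label, 60.8, 31.7 and 19.4 under the wild-type label with niacin, and 32.7 and 38.8 under the knockout label with niacin. Levels after stimulation were 127, 133 and 151 CPM under the wild-type label, 164, 186 and 184 under the knockout label, 134, 158 and 139 under the wild-type label with niacin, and 169, 174 and 166 under the knockout label with niacin. Each stimulated library exceeded each unstimulated library, with changes of 1.59 ± 0.31, 2.19 ± 0.32, 1.95 ± 0.31 and 2.24 ± 0.37 (adjusted p = 0.000319, 9.65e-06, 3.17e-05 and 5.34e-05). Gins2, Mcm10 and Gins1 followed closely, with mean changes of 1.99, 1.98 and 1.93 beside 1.99 for Cdc45. Gins3, a subunit of the same GINS complex as Gins1 and Gins2 (ENSMUSG00000031669, chromosome 8, 95633453 to 95645060), changed least. It was found at 24.5, 21.3 and 19.4 CPM under the wild-type label, 30.7, 19.8 and 21.7 under the knockout label, 33.99, 20.8 and 16.2 under the wild-type label with niacin, and 16.5 and 21.6 under the knockout label with niacin without stimulation. With stimulation it was found at 26.8, 26.1 and 33.1 CPM under the wild-type label, 30.5, 36.4 and 36.7 under the knockout label, 22.7, 23.6 and 25.3 under the wild-type label with niacin, and 26.4, 36.8 and 29.5 under the knockout label with niacin. Stimulated libraries were all higher under the wild-type label and under the knockout label with niacin and overlapped unstimulated ones in the other backgrounds. Only the change under the knockout label with niacin passed, the changes being 0.40 ± 0.23, 0.52 ± 0.23, 0.01 ± 0.23 and 0.70 ± 0.26 (adjusted p = 0.158, 0.06, 0.967 and 0.0311). Gins4, the remaining GINS subunit, rose in all 4 backgrounds with a mean change of 0.82. Of the kinase that starts the helicase, the activating partner Dbf4 changed by 1.20 on average and rose in all 4, and the catalytic subunit Cdc7 by 0.65 and rose in 3.

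The polymerases showed a similar range. Pole, the catalytic subunit of polymerase epsilon (ENSMUSG00000007080, chromosome 5, 110286306 to 110337474), changed most. Unstimulated cells gave 42.7, 37.9 and 26.2 CPM under the wild-type label, 42.8, 30.9 and 14.04 under the knockout label, 53.5, 28.8 and 23.5 under the wild-type label with niacin, and 26.03 and 37.7 under the knockout label with niacin. Stimulated cells gave 84.5, 102 and 95.03 CPM under the wild-type label, 108, 116 and 108 under the knockout label, 79.6, 91.00 and 79.8 under the wild-type label with niacin, and 115, 105 and 129.8 under the knockout label with niacin. There was no overlap between stimulated and unstimulated libraries, and the changes were 1.40 ± 0.30, 1.91 ± 0.31, 1.24 ± 0.30 and 1.87 ± 0.36 (adjusted p = 0.000856, 3.46e-05, 0.00185 and 0.000238). Pola1, the catalytic subunit of polymerase alpha (ENSMUSG00000006678, chromosome X, 93304767 to 93632155), did not pass in any background. It read 35.8, 34.9 and 41.2 CPM under the wild-type label, 52.1, 30.9 and 16.6 under the knockout label, 53.3, 36.6 and 31.8 under the wild-type label with niacin, and 30.5 and 39.5 under the knockout label with niacin when unstimulated. It read 50.9, 57.9 and 41.7 CPM under the wild-type label, 48.5, 50.4 and 60.4 under the knockout label, 26.5, 26.4 and 48.8 under the wild-type label with niacin, and 62.4, 54.2 and 33.1 under the knockout label with niacin when stimulated. Those ranges overlapped in 3 of the 4 backgrounds, and the changes were 0.43 ± 0.32, 0.67 ± 0.32, -0.26 ± 0.32 and 0.51 ± 0.36 (adjusted p = 0.283, 0.0839, 0.507 and 0.247). Its partners did pass: the primase subunits Prim1 and Prim2 rose in all 4 backgrounds with mean changes of 1.10 and 1.59, and Pola2 in all 4 with 0.83. Of polymerase delta, the catalytic subunit Pold1 rose in all 4 (mean 1.29) and Pold2 in 2 (mean 0.48).

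Pcna and the small loader subunits Rfc2, Rfc3, Rfc4 and Rfc5 rose in all 4 backgrounds, and the large subunit Rfc1 in 1. Rfc4 (ENSMUSG00000022881, chromosome 16, 23113943 to 23127737), a small subunit, had the largest change of this role. Without stimulation its libraries held 38.3, 33.5 and 35.5 CPM under the wild-type label, 41.3, 30.8 and 10.6 under the knockout label, 60.5, 32.7 and 21.2 under the wild-type label with niacin, and 23.4 and 33.8 under the knockout label with niacin. With stimulation they held 101, 119.8 and 126 CPM under the wild-type label, 137, 152 and 144 under the knockout label, 62.8, 80.2 and 113 under the wild-type label with niacin, and 147, 162 and 130.4 under the knockout label with niacin. All stimulated libraries lay higher than all unstimulated ones, the changes being 1.69 ± 0.36, 2.37 ± 0.37, 1.16 ± 0.35 and 2.36 ± 0.43 (adjusted p = 0.000669, 2.02e-05, 0.00918 and 0.000144). Rfc1, the large subunit (ENSMUSG00000029191, chromosome 5, 65261850 to 65335670), read 61.4, 63.5 and 61.97 CPM under the wild-type label, 75.6, 61.3 and 32.4 under the knockout label, 67.9, 54.03 and 59.9 under the wild-type label with niacin, and 52.6 and 62.1 under the knockout label with niacin in unstimulated libraries. In stimulated libraries it read 86.9, 92.1 and 76.4 CPM under the wild-type label, 82.9, 83.9 and 93.7 under the knockout label, 53.8, 66.2 and 80.98 under the wild-type label with niacin, and 79.5, 78.1 and 87.8 under the knockout label with niacin. Stimulated libraries were all higher in 3 backgrounds and overlapped unstimulated ones under the wild-type label with niacin. The change passed under the knockout label only, at 0.45 ± 0.21, 0.62 ± 0.21, 0.14 ± 0.21 and 0.51 ± 0.24 in the 4 backgrounds (adjusted p = 0.0833, 0.0178, 0.573 and 0.0764). Pcna, the clamp, rose in all 4 backgrounds by 0.96 ± 0.24, 1.23 ± 0.24, 0.61 ± 0.24 and 1.66 ± 0.28 (adjusted p = 0.00281, 0.000272, 0.039 and 7.86e-05). Its processed pseudogene Pcna-ps2 drew 1461 counts in all libraries together, against 133791 for Pcna.

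The genes that join the lagging strand differed in counted level. The Fen1 count is uncertain, because an antisense gene overlaps 78.8% of its exon length, while 5.79% of that of Lig1 is overlapped. Lig1, the replicative DNA ligase (ENSMUSG00000056394, chromosome 7, 13277283 to 13311433), was at 119, 66.9 and 63.2 CPM under the wild-type label, 102, 67.3 and 126 under the knockout label, 106, 63.3 and 48.3 under the wild-type label with niacin, and 51.04 and 73.9 under the knockout label with niacin in unstimulated libraries. In stimulated libraries it was at 224, 211 and 238 CPM under the wild-type label, 267, 245 and 274 under the knockout label, 267, 266 and 216 under the wild-type label with niacin, and 285, 294 and 306 under the knockout label with niacin. These ranges did not overlap, and the ligase rose by 1.43 ± 0.26, 1.41 ± 0.26, 1.79 ± 0.27 and 2.24 ± 0.32 (adjusted p = 0.000184, 0.000165, 1.42e-05 and 1.05e-05). Fen1, the flap endonuclease (ENSMUSG00000024742, chromosome 19, 10199132 to 10204169), was counted at 7.0039, 4.82 and 4.28 CPM under the wild-type label, 6.17, 4.83 and 12.5 under the knockout label, 5.82, 4.11 and 3.18 under the wild-type label with niacin, and 2.82 and 5.33 under the knockout label with niacin before stimulation. After stimulation it was counted at 8.34, 7.85 and 10.6 CPM under the wild-type label, 11.5, 9.07 and 12.1 under the knockout label, 12.2, 11.9 and 7.29 under the wild-type label with niacin, and 11.7, 13.2 and 12.1 under the knockout label with niacin. It rose in the 2 backgrounds with niacin, the changes being 0.74 ± 0.33, 0.49 ± 0.33, 1.26 ± 0.34 and 1.596 ± 0.39 (adjusted p = 0.0769, 0.214, 0.00373 and 0.00214), and the highest unstimulated value again belonged to library 3 of the knockout-labelled cells.

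Nucleotide supply rose in every background for Tk1, Dut and Rrm1, and in the knockout-labelled backgrounds for Rrm2 and Tyms. Tk1 (ENSMUSG00000025574, chromosome 11, 117815526 to 117826092), the thymidine kinase of the salvage route, held 77.9, 36.5 and 39.6 CPM under the wild-type label, 60.5, 33.6 and 57.3 under the knockout label, 71.4, 35.9 and 21.5 under the wild-type label with niacin, and 26.2 and 41.8 under the knockout label with niacin when unstimulated. When stimulated it held 138, 132 and 142 CPM under the wild-type label, 161, 149 and 163 under the knockout label, 185, 172 and 131 under the wild-type label with niacin, and 172, 168 and 182 under the knockout label with niacin. Every stimulated library was above every unstimulated one, with changes of 1.42 ± 0.33, 1.64 ± 0.33, 1.93 ± 0.34 and 2.36 ± 0.40 (adjusted p = 0.00164, 0.000372, 8.07e-05 and 7.53e-05). Tyms (ENSMUSG00000025747, chromosome 5, 30058202 to 30073617), the synthase that makes thymidylate, had the smallest change of the role. Its levels without stimulation were 101, 59.5 and 57.4 CPM under the wild-type label, 85.9, 51.6 and 38.7 under the knockout label, 103, 56.5 and 38.4 under the wild-type label with niacin, and 37.00 and 55.1 under the knockout label with niacin. Its levels with stimulation were 98.01, 107 and 149 CPM under the wild-type label, 152, 160.3 and 163 under the knockout label, 83.6, 114 and 93.1 under the wild-type label with niacin, and 166, 173 and 182 under the knockout label with niacin. Stimulated libraries were all higher under the knockout label, with and without niacin, and overlapped unstimulated ones under the wild-type label. The changes were 0.70 ± 0.31, 1.43 ± 0.31, 0.56 ± 0.31 and 1.92 ± 0.37 (adjusted p = 0.0674, 0.000715, 0.131 and 0.000248). Rrm2 (ENSMUSG00000020649, chromosome 12, 24708241 to 24714146), the regulatory subunit of ribonucleotide reductase, gave 367, 215 and 225 CPM under the wild-type label, 315, 169 and 126 under the knockout label, 391, 202 and 107 under the wild-type label with niacin, and 145 and 198 under the knockout label with niacin without stimulation. With stimulation it gave 402, 488 and 548 CPM under the wild-type label, 586, 648 and 697 under the knockout label, 342, 406 and 404 under the wild-type label with niacin, and 673, 727 and 760.0 under the knockout label with niacin. Overlap was seen only under the wild-type label with niacin, where unstimulated library 1 lay above stimulated library 1. The changes were 0.83 ± 0.34, 1.66 ± 0.35, 0.72 ± 0.34 and 2.07 ± 0.41 (adjusted p = 0.0505, 0.000462, 0.0807 and 0.000325). Without niacin, the test of whether the stimulation change differed between the labels did not pass for Rrm2 (0.83 ± 0.48, adjusted p = 0.534) or Tyms (0.72 ± 0.43, adjusted p = 0.544). With niacin the differences were 1.35 ± 0.51 (adjusted p = 0.387) and 1.36 ± 0.47 (adjusted p = 0.361), which did not pass either.

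Both genes that copy methylation rose in all 4 backgrounds. Uhrf1 (ENSMUSG00000001228, chromosome 17, 56303321 to 56323486), which binds half-methylated DNA behind the fork, read 203, 124 and 105 CPM under the wild-type label, 169.6, 101 and 181 under the knockout label, 178, 96.9 and 66.7 under the wild-type label with niacin, and 74.6 and 112 under the knockout label with niacin before stimulation. After stimulation it read 322, 367 and 379.5 CPM under the wild-type label, 395, 391 and 447 under the knockout label, 399, 389 and 299.7 under the wild-type label with niacin, and 414, 447 and 492 under the knockout label with niacin. Dnmt1 (ENSMUSG00000004099, chromosome 9, 20907209 to 20959888), the maintenance methyltransferase that Uhrf1 recruits, read 456, 319 and 292 CPM under the wild-type label, 368, 303 and 361 under the knockout label, 384, 253 and 256 under the wild-type label with niacin, and 256 and 311 under the knockout label with niacin before stimulation. Stimulated libraries read 511, 605 and 592 CPM under the wild-type label, 619, 745 and 729 under the knockout label, 645, 665 and 513 under the wild-type label with niacin, and 656, 655 and 704 under the knockout label with niacin. Neither gene overlapped between stimulated and unstimulated libraries. Uhrf1 changed by 1.30 ± 0.29, 1.45 ± 0.29, 1.67 ± 0.29 and 2.27 ± 0.35 (adjusted p = 0.00106, 0.000325, 8.08e-05 and 2.61e-05). Dnmt1 changed by 0.68 ± 0.18, 1.02 ± 0.18, 1.03 ± 0.18 and 1.24 ± 0.20 (adjusted p = 0.00368, 7.38e-05, 6.47e-05 and 5.16e-05).

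**Figure D2:**
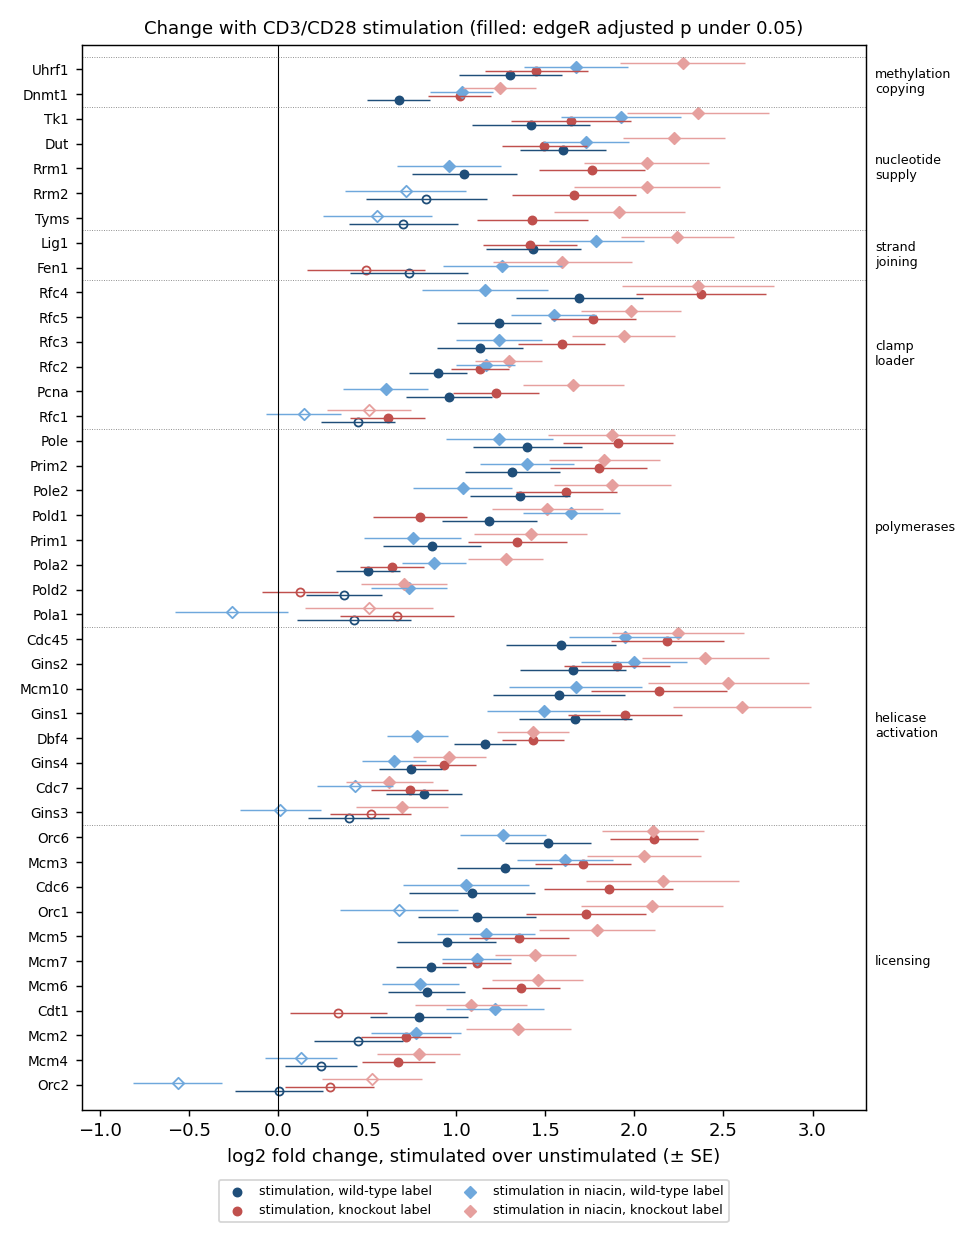
Log2 fold change of stimulated over unstimulated cells (x axis, with SE) for each of the 42 genes (y axis, sorted by mean change within each role), with circles without niacin, diamonds with niacin, blue shades for the wild-type label and red shades for the knockout label, and filled symbols at an adjusted p under 0.05. Cdc45, Gins2, Mcm10 and Gins1 reach mean changes of 1.93 to 1.99, and Orc2 and Pola1 have no filled symbol.

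Other genes of the S phase program were described from separate lists. Of 37 further replication genes, 26 rose and 3 fell under the wild-type label, 27 and 3 under the knockout label, 22 and 5 under the wild-type label with niacin and 29 and 1 under the knockout label with niacin. The largest changes were those of Gmnn, the inhibitor of Cdt1, at 1.88, 2.38, 1.75 and 2.30, and Ticrr, which helps Cdc45 to load, at 1.81, 1.73, 1.97 and 2.37. Of 11 further nucleotide genes 5, 5, 4 and 5 rose and 3, 4, 5 and 4 fell. Shmt1, a folate enzyme, rose by 1.51, 2.55, 1.62 and 2.65, while Rrm2b, the p53-responsive counterpart of Rrm2, changed by -1.69, -1.43, -2.34 and -2.25. Of 19 genes that control S phase entry 10, 12, 12 and 14 rose and 2, 2, 4 and 2 fell. Those that rose included the cyclins Ccne1 (1.48, 2.19, 1.67 and 2.47) and Ccna2 (1.81, 1.90, 1.77 and 2.52). Of 10 replication checkpoint genes 3, 3, 2 and 4 rose and 0, 0, 3 and 1 fell, shares near those of all genes tested. Among them was Cdkn1a (3.84, 4.29, 4.09 and 4.53), the cyclin-dependent kinase inhibitor p21. Of 22 mitosis genes 20, 21, 16 and 21 rose and none fell. Over all genes tested, 23.4%, 25.2%, 26% and 24.5% rose.

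The second comparison asked whether cells of the knockout label differed from those of the wild-type label, as far as labels go that Hcar2 contradicts. In stimulated cells the knockout-labelled group was higher for 41 of the 42 genes, by a median log2 difference of 0.27 (all genes -0.02). None passed the test, as against 0.113% of all genes in either direction, with a lowest adjusted p of 0.558 and 1 gene (Orc1) at an unadjusted p under 0.05. For 29 of the 42 every knockout-labelled library lay above every wild-type-labelled one, which held for 9.34% of all genes tested. With niacin the knockout-labelled group was higher for 39 of 42, with a median of 0.38 (all genes -0.02). Again none passed (1.44% of all genes did), the lowest adjusted p being 0.0886 for Orc2, and 13 genes had an unadjusted p under 0.05. Orc2 was lower by 1.11 on the log2 scale in wild-type-labelled libraries 1 and 2 with niacin than in library 3. A gene on the other strand overlaps 29.8% of its exon length. Counts at an unadjusted p under 0.05, here and below, stand without the share of all genes and are not read as results. Knockout-labelled libraries were all higher for 27 of the 42, against 12.5% of all genes.

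The gene with the largest difference was Orc1 without niacin and Rrm2 with niacin. Rrm2 read 402, 488 and 548 CPM in stimulated wild-type-labelled cells and 586, 648 and 697 CPM in knockout-labelled ones, and with niacin 342, 406 and 404 CPM against 673, 727 and 760.0 CPM. The groups did not overlap in either condition, and the differences were 0.42 ± 0.34 and 0.91 ± 0.34 (adjusted p = 0.811 and 0.15). Orc1 (ENSMUSG00000028587, chromosome 4, 108579423 to 108614833) read 24.7, 28.9 and 28.6 CPM against 37.6, 44.0 and 53.4 CPM, and with niacin 25.6, 23.6 and 22.2 CPM against 39.5, 40.003 and 47.9 CPM. It too was higher in all 6 knockout-labelled libraries than in all 6 wild-type-labelled ones, by 0.71 ± 0.33 and 0.84 ± 0.33 (adjusted p = 0.558 and 0.171). Tyms differed by 0.42 ± 0.31 and 0.84 ± 0.31, Cdc6 by 0.45 ± 0.35 and 0.57 ± 0.35, Pcna by 0.26 ± 0.24 and 0.69 ± 0.24 and Mcm2 by 0.45 ± 0.25 and 0.45 ± 0.25, none of which passed. Mcm5 differed by 0.34 ± 0.27 and 0.47 ± 0.27, Cdc45 by 0.38 ± 0.30 and 0.24 ± 0.30 and Dnmt1 by 0.29 ± 0.17 and 0.14 ± 0.17. Cdt1 (0.15 ± 0.27 and -0.16 ± 0.27), Pold1 and Pold2 were the 3 genes below 0 with niacin. Only Cdc7 was below 0 without it, and 38 of 42 were above 0 in both conditions.

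Averaged over both stimulated conditions, a comparison added with the data in view, the median difference was 0.32 and none of the 42 genes passed, while 4.47% of all genes did. The lowest adjusted p was 0.058, for Orc1, and 15 genes had an unadjusted p under 0.05. When the 4 stimulated groups were fitted without the unstimulated ones, 26 of the 42 passed as higher, against 8% of all 14367 genes tested then, and none as lower. The median difference was nearly the same in that fit, 0.32, while the SE for Orc1 was 0.23 with all groups and 0.11 with the 4. The 26 comprised 9 of 11 licensing genes, 4 of 8 of helicase activation, 3 of 8 polymerase genes, 4 of 6 of the clamp and its loader, 1 of 2 that join strands, 4 of 5 of nucleotide supply and 1 of 2 that copy methylation. In that fit Orc1 was higher by 0.78 ± 0.11 (adjusted p = 0.00103), Rrm2 by 0.67 ± 0.08 (adjusted p = 0.000544) and Rrm1 by 0.60 ± 0.09 (adjusted p = 0.0015). Over all 12 stimulated libraries, 13 genes did not overlap between the labels (2.16% of all genes), namely Orc1, Orc6, Cdc6, Mcm4, Mcm6, Cdc45, Pole, Rfc3, Rfc4, Rfc5, Rrm1, Rrm2 and Tyms. In the fit of all groups, where none of the 42 passed, the median averaged difference was 0.12 for the 22 mitosis genes, none of which passed. It was 0.25 for the 37 further replication genes, of which 1 passed (Asf1a). Summed levels under the knockout label were 1.23 and 1.29 times those under the wild-type label for the 42 genes (stimulated without and with niacin). The ratios were 1.28 and 1.31 for the replication checkpoint genes and 1.12 and 1.25 for those of S phase control. They were 1.12 and 1.26 for the further replication genes, 1.04 and 1.13 for mitosis and 0.96 and 1.14 for the further nucleotide genes. CD4 T cell markers summed to 5054 to 6122 CPM under the wild-type label and 4793 to 5090.1 CPM under the knockout label in stimulated cells, and NK and gamma delta markers to 76.5 to 114 and 83.8 to 114 CPM. Their part in the difference was not tested.

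**Figure D3:**
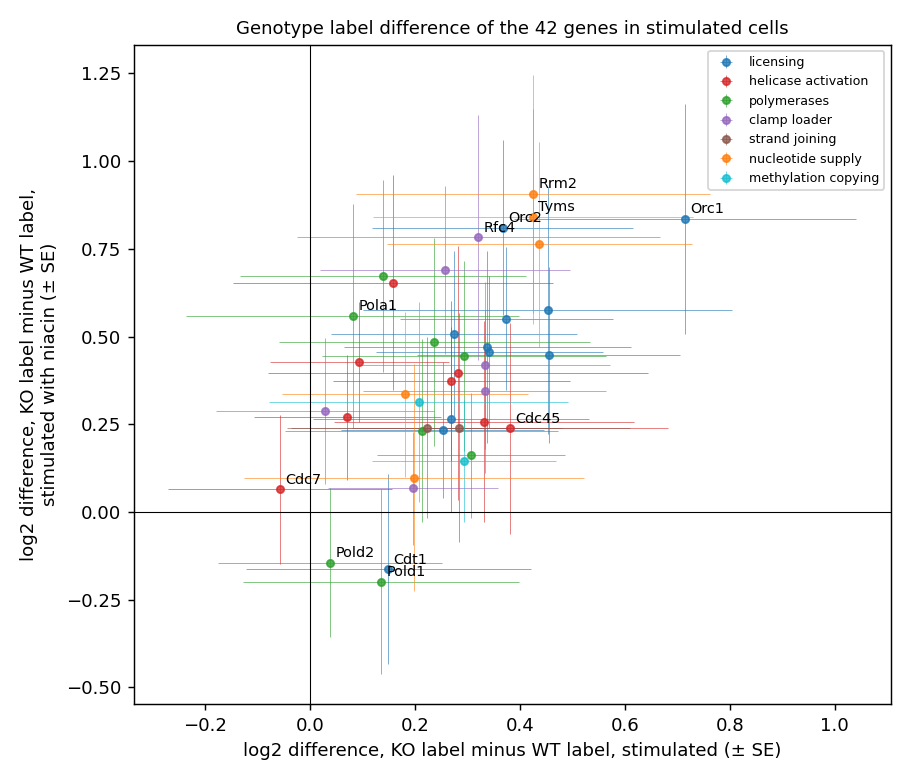
Log2 difference of the knockout label minus the wild-type label for the 42 genes in stimulated cells without niacin (x axis) and with niacin (y axis), with SE and colours by role. Points for 38 genes lie above 0 on both axes, Orc1, Rrm2 and Tyms farthest from 0, and Cdt1, Pold1 and Pold2 lie below 0 on the y axis.

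In unstimulated cells the estimates were mostly of the opposite sign, below 0 for 28 genes without niacin and for all 42 with it. The share of all genes below 0 is not given. All 42 genes were above their group mean in wild-type-labelled library 1 with niacin, and the knockout-labelled group has no library 1. The signs are therefore not 42 separate results. The median was -0.09 without niacin and -0.20 with niacin, none of the 42 genes passed, and none was at an unadjusted p under 0.05 with niacin and 1 (Cdt1) without. Of all genes, 0.0415% and 0.0355% passed. The median with niacin was 0.13 without library 1 of every unstimulated group. Averaged over both unstimulated conditions the median was -0.14 and none passed (0.113% of all genes did). Rrm2 differed by -0.40 ± 0.34 without niacin and -0.45 ± 0.38 with it, Orc1 by 0.10 ± 0.33 and -0.58 ± 0.38, and Mcm5 by -0.07 ± 0.27 and -0.15 ± 0.31. Without niacin, the difference between the labels in the stimulation change was positive in sign for 35 of 42 genes, with a median of 0.27 (all genes -0.04), but none passed (0.00592% of all genes did) and none was at an unadjusted p under 0.05. The same difference with niacin, added with the data in view, was positive for 39 of 42 genes with a median of 0.61 (all genes -0.01). None of the 42 and 0% of all genes passed by edgeR, none of the 42 by DESeq2, and 11 of the 42 were at an unadjusted p under 0.05, with a lowest adjusted p of 0.361. The estimate was largest for Orc1, 1.42 ± 0.50. Without library 1 of every unstimulated group the median was 0.21.

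The third comparison asked what niacin at 5 mM did to the replication genes. None of the 42 passed in any of the 4 backgrounds by edgeR or DESeq2, where edgeR passed 0%, 0.00592%, 0% and 0% of all genes (stimulated wild-type, stimulated knockout, unstimulated wild-type and unstimulated knockout label). The median changes in that order were -0.10, 0.03, -0.14 and -0.28, and 0, 0, 0 and 8 genes had an unadjusted p under 0.05. In stimulated wild-type-labelled cells Mcm2 changed by 0.13 ± 0.25, Mcm5 by -0.02 ± 0.27, Cdc6 by -0.11 ± 0.35, Cdc45 by 0.07 ± 0.30, Pcna by -0.29 ± 0.24 and Dnmt1 by 0.09 ± 0.17. In stimulated knockout-labelled cells the same genes changed by 0.12 ± 0.25, 0.11 ± 0.27, 0.02 ± 0.35, -0.07 ± 0.30, 0.14 ± 0.24 and -0.05 ± 0.17. The SEs in stimulated cells were 0.16 to 0.36. Averaged over both labels, the median change with niacin was -0.01 in stimulated and -0.20 in unstimulated cells, and none of the 42 passed (0.0948% of all genes in each), with 0 and 7 at an unadjusted p under 0.05. The difference in the niacin effect between the labels passed for none of the 42 (median 0.12, 0% of all genes).

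In unstimulated knockout-labelled cells the 8 genes with the smallest p were lower with niacin, among them Fen1 (-0.92 ± 0.38), Cdt1 (-0.75 ± 0.31) and Pola2. Both groups are uneven in their libraries. The niacin group has libraries 2 and 3 only, and the group without niacin includes library 1, the highest for most genes, and library 3, in which Fen1 read 12.5 CPM against 6.17 and 4.83 CPM and Cdt1 218 CPM against 104 and 74.6 CPM. Without library 3 of the group without niacin Fen1 changed by -0.43 and Cdt1 by -0.19, and without library 1 of every unstimulated group by -1.06 and -0.89. The median of the 42 genes in the latter setting was 0.03 in these cells and -0.27 under the wild-type label.

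Spread between libraries was itself a feature of these genes. Within unstimulated groups the median coefficient of variation of the 42 genes was 24.1% under the wild-type label, 33.6% under the knockout label, 38.7% under the wild-type label with niacin and 19.0% under the knockout label with niacin. The 9040 genes at least as abundant as the least abundant of the 42 had medians of 12.2%, 28.2%, 11.2% and 6.69% there. Within stimulated groups the 42 genes had medians of 9.51%, 7.15%, 16.1% and 6.35%, beside 10.5%, 8.13%, 14.8% and 9.35% for the abundant genes. The median of the 42 was thus the larger in all 4 unstimulated groups and in 1 stimulated group, the wild-type label with niacin, and no test of this was made. Mcm10, which helps the helicase to start, had the highest coefficient in both unstimulated wild-type-labelled groups (49.5% and 71.6%), and Rfc1 the lowest (1.75% and 11.5%).

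In unstimulated cells library 1 was the high one. It was the highest of its group for 38 of 42 genes under the wild-type label, 33 under the knockout label and all 42 under the wild-type label with niacin. Its median ratio to the mean of the other libraries was 1.48, 1.55 and 1.80. In stimulated cells library 1 was the lowest of its group for 30 genes under the wild-type label and 24 under the knockout label. It was the highest there for 2 and 6. With niacin it was the lowest for 20 and 21 and the highest for 10 and 7. The share of all genes highest or lowest in library 1 was not counted, so these counts are not shown to be particular to the replication genes. Mitosis genes moved with the replication genes in the unstimulated libraries numbered 1, their summed level being 1.63, 1.75 and 2.39 times that of the other libraries. Among markers of other cells, Klrb1c, the NK cell receptor NK1.1, read 13.6, 8.01 and 12.7 CPM in these libraries and 2.29 to 6.25 CPM in the other unstimulated ones, and Ncr1 read 5.68, 0 and 3.30 CPM against 0.41 to 1.47 CPM. Klrb1c and Ncr1 are only part of the NK and gamma delta list. That list (6 of 7 markers in the table detected, Klra8 at 0) summed to 33.9 to 46.7 CPM in the unstimulated libraries numbered 1 and 20.9 to 38.6 CPM in the other unstimulated ones. Under the knockout label its unstimulated sum was 33.9, 32.0 and 38.2 CPM in libraries 1, 2 and 3, so library 1 was not the highest there. B cell markers summed to 728 to 809 CPM against 416 to 1109 CPM and myeloid markers to 4.85 to 12.02 CPM against 4.19 to 12.05 CPM. Their part in the spread was not tested. Leaving out library 1 of every unstimulated group moved the number that rose with stimulation from 32 to 37 under the wild-type label, from 36 to 37 under the knockout label and from 33 to 38 under the wild-type label with niacin. The share of all genes that rose in that setting is not given. These moves therefore cannot be told from a setting that passes more genes everywhere.

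**Figure D4:**
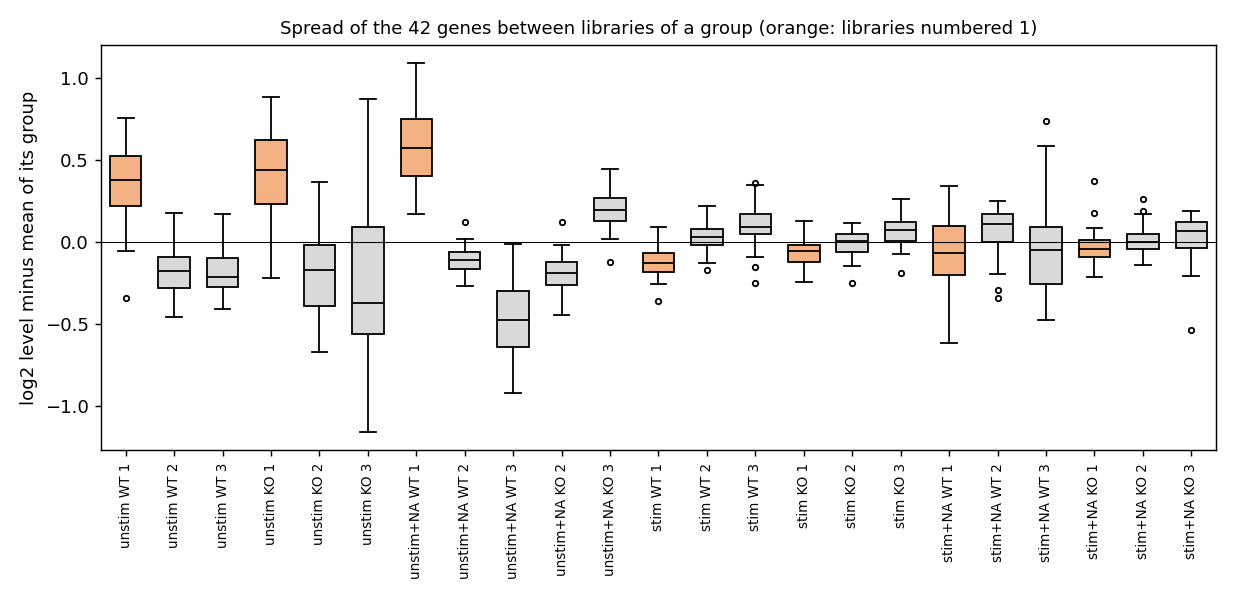
Log2 level of the 42 genes minus the mean of their group (y axis) in each library (x axis; NA is niacin), as boxes with medians, quartiles and whiskers to 1.5 times the box height. The libraries numbered 1, in orange, lie above 0 in the 3 unstimulated groups that have one, and the boxes of stimulated groups are narrower.

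In several groups libraries differed along another axis, shown here for libraries 1 and 2 of the wild-type label stimulated with niacin and for library 3 of the unstimulated knockout label. There the genes moved in opposite directions according to the G+C content of their longest transcript, which ran from 39.1% to 61.0% with a median of 48.3%. Under the wild-type label stimulated with niacin, libraries 1 and 2 were on average 0.35 higher than library 3 on the log2 scale for the 21 genes richest in G+C and 0.14 lower for the 21 poorest (medians), and the correlation over the 42 genes was 0.789. Pold1, Pold2 and Cdt1, the 3 genes richest in G+C, were higher by 0.50, 0.51 and 0.46, and Orc2 and Pola1 were lower by 1.11 and 0.88. Library 3 of the unstimulated knockout label differed from libraries 1 and 2 by 0.11 for the rich and -0.77 for the poor genes, with a correlation of 0.755. In it Cdt1 was higher by 1.31 and Pold1 by 1.22, and Rfc4 and Pole were lower by 1.74 and 1.37. The correlations are descriptions over genes of the same libraries. Over 8936 genes at least as abundant, library 3 of the wild-type label stimulated with niacin against the others of its group gave -0.75, so the pattern was not limited to the replication genes. Library 1 of the unstimulated wild-type label, described above as the high one, gave 0.55 over these genes and 0.369 over the 42, and library 3 of that group gave -0.671 over the 42. Mitochondrial genes took 0.346% of the counts in that library 1, against 0.937% and 0.802% in libraries 2 and 3.

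**Figure D5:**
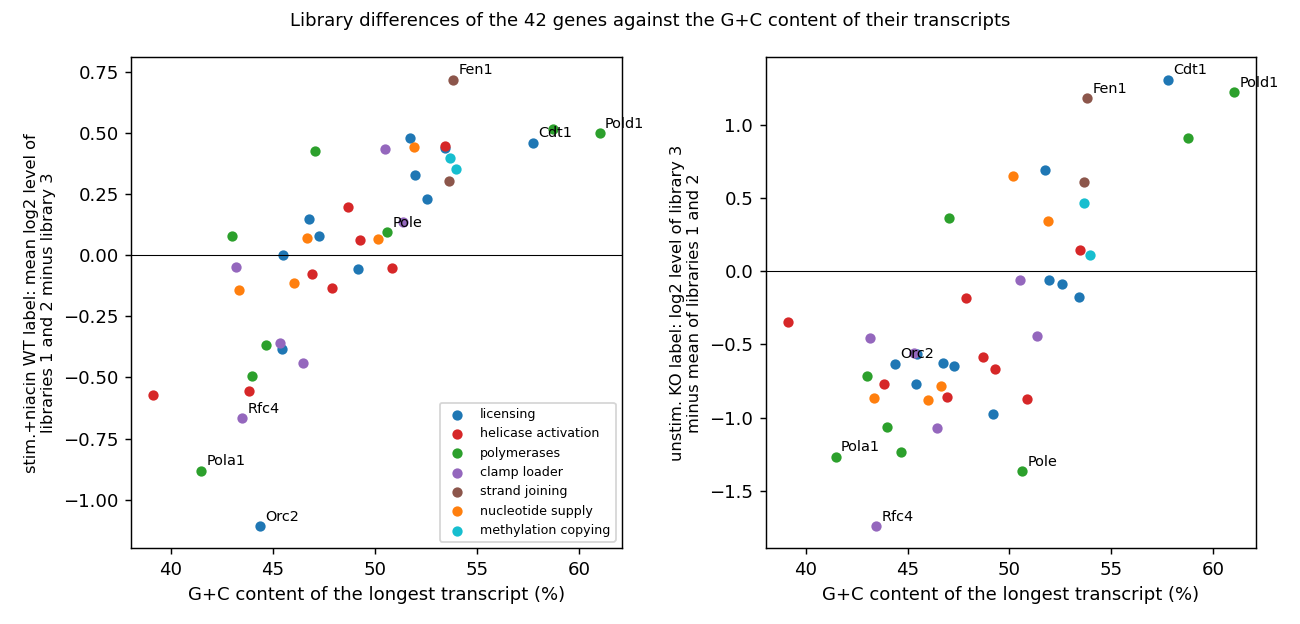
G+C content of the longest transcript of each of the 42 genes (x axis, %) against the log2 difference between libraries of one group (y axis), on the left libraries 1 and 2 minus library 3 of the wild-type label stimulated with niacin, on the right library 3 minus libraries 1 and 2 of the unstimulated knockout-labelled cells. Points rise from left to right in both panels (correlations 0.789 and 0.755), with Cdt1 and Pold1 at the upper right and Pola1 and Rfc4 at the lower left.

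Comparisons that use these libraries differed in how far the change followed G+C content. Stimulation in niacin under the wild-type label correlated at 0.467 over the 42 genes, with medians of 1.26 for the 21 rich and 0.76 for the 21 poor genes. Stimulation under the knockout label correlated at -0.259, with medians of 1.41 and 1.43. The change with niacin in stimulated wild-type-labelled cells correlated with G+C content at 0.79 over the 42 genes, and that in stimulated knockout-labelled cells at 0.061. The difference by genotype label in stimulated cells correlated at -0.661 with niacin and -0.107 without it. Its median was 0.26 for the 21 rich and 0.55 for the 21 poor genes with niacin, and 0.25 and 0.29 without niacin. Without libraries 1 and 2 of the wild-type label stimulated with niacin, the median genotype label difference with niacin was 0.40, with a lone library left in that group. Whether G+C content is the cause was not tested.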

How the data were processed

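Libraries were made with the SMART-seq V4 kit and read from both ends, per the labels' protocols. The authors deposited raw counts per gene. The submitters' processing notes name Trimmomatic 0.38, STAR 2.7.0e and featureCounts 1.6.3 with the builds GRCm38.p5 and mm10. Neither the strand setting nor the annotation release was given in the sources used. Coordinates are those of the deposited table, and 41 of the 42 genes have the same span in GENCODE vM21.

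The main test was edgeR 4.0.16 with its quasi-likelihood fit of 1 mean for each of the 8 groups over all 23 libraries, TMM factors and filterByExpr (minimum count 10), which left 16882 genes. Benjamini-Hochberg adjustment ran over all of them, with a threshold of 0.05. The SE given for edgeR was derived from its test, as the absolute log2 fold change divided by the square root of the F statistic. Values per kilobase (RPKM) use the exon length in the deposited table. G+C content was taken from the longest GENCODE vM21 transcript, with 0.1 CPM added before logs. The scripts were tested on simulated data. Other settings were RLE factors, DESeq2 1.42.0, no filter, limma 3.58.1 voom with sample weights, the replicate number as a block, the compared groups alone, and leaving out libraries. Library values are given for the gene of each role with the largest and the smallest average stimulation change and, beyond that rule, for Cdc6, Rrm2 and Orc1. A set of 9 genes is named for stimulation and for the genotype label in stimulated cells, and from the other lists the largest changes. Other comparisons name fewer of the set, and for niacin no change is given for Rrm2 or Tyms. The 42 genes and all lists were chosen with earlier results of these data known.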

Additional observations from a re-analysis of the deposited data

How the results depend on the processing

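The counts of genes that rose with stimulation stayed within 1.5 times of the main ones under every setting run, the lowest being 23 under the wild-type label with niacin without libraries 1 and 2 of its stimulated group. Under 6 settings 1 gene, Orc2, passed as lower in that background. Leaving out 1 library at a time gave 28 to 36 genes higher with stimulation under the wild-type label, 34 to 38 under the knockout label, 27 to 36 under the wild-type label with niacin and 33 to 39 under the knockout label with niacin. The 0 genes passing for the genotype label in stimulated cells with niacin became 1 with DESeq2, 7 with no filter, 14 with voom and sample weights, 6 with the compared groups only, 4 without knockout-labelled library 3 and wild-type-labelled library 1 of the unstimulated cells, and 6 without library 1 of every unstimulated group, all higher. For the averaged difference in stimulated cells the counts were 3, 12, 17, 26, 9 and 12 in that order. Leave-one-out gave 0 to 2 and 0 to 1 for these comparisons, and 0 to 1 (lower) for niacin in stimulated wild-type-labelled cells, the nonzero values coming without wild-type-labelled library 3 stimulated with niacin. The 0 genes passing for the stimulation change differing by label in niacin became 7 with no filter, 8 with voom (all higher) and 0 to 1 with leave-one-out. Voom made 3 genes lower with niacin in those cells, and no filter made 1 lower in unstimulated knockout-labelled cells and 1 in the unstimulated average. The share of all genes passing is given here only for the averaged difference with the compared groups only, 8% as higher. The other counts therefore cannot tell a change of the replication genes from a setting that passes more genes everywhere. The cause of the moves in these counts was not tested. Over all genes, same-numbered libraries of the same stimulation had correlated deviations of -0.18 to 0.29, 5 of 33 pairs above 0.1. In no comparison were all pairs above 0.1, so the numbers were not taken as pairs, although over the 42 genes unstimulated wild-type-labelled libraries 1 without and with niacin correlated at 0.676. With the replicate number as a block 1 gene passed in the averaged difference and no other count moved by over 1.5 times. The setting without library 1 of every unstimulated group, the averaged genotype comparisons and the label difference of the stimulation change in niacin were chosen after seeing the data. With 2 or 3 libraries per group, small changes in unstimulated cells could not be detected.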
